A study of Mus musculus with 5 samples.

Results

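The cells described here are the barcodes of a mouse bone marrow suspension that carried at least 5 unique molecular identifiers (UMIs, counted RNA molecules) summed over 7 genes of marrow stroma and vessels, namely Cdh5, Kdr, Emcn, Col1a1, Col1a2, Lepr and Cxcl12. A barcode was taken as a cell when it held at least 500 UMIs and at most 10% of them came from the 13 mitochondrially encoded mt- genes. By that rule 68 of 29679 cells were chosen (0.229%, exact binomial 95% confidence interval 0.178 to 0.290%). The values of the 7 genes chose the cells, so those values are a description and no test of them was made. Marrow came from 5 C57BL/6J mice, bought at an age of 8 weeks, and each received 1000 BCR-ABL1 pre-B acute lymphoblastic leukemia cells by the tail vein without irradiation. The day 0 mouse was killed directly after the injection, so it had also received leukemia cells, and the other mice were killed at days 3, 6, 9 and 12. Each day was therefore 1 mouse and 1 library of 10x Genomics 3′ v2 single-cell RNA sequencing. The flushed marrow plug of femurs and tibias was pooled with cells freed from the crushed bones by collagenase and DNase I, red cells were lysed, the cells were frozen before sequencing, and no sort for stroma or endothelium was made. With 1 mouse per day there is no replicate error, no test between days was made, and every interval covers counting error only.

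Marrow stroma is the non-blood scaffold in which blood cells form. Reticular stromal cells wrap the sinusoids, carry the leptin receptor and secrete CXCL12 and KIT ligand, which keep stem cells and B cell precursors in place. Osteoblasts build bone on a frame of type I collagen, which is made from the products of Col1a1 and Col1a2, chondrocytes make the type II collagen of cartilage, and fibroblasts of the outer bone surface make decorin and other fibrous matrix. Endothelial cells line the vessels and are known by VE-cadherin (Cdh5), the VEGF receptor KDR and endomucin (Emcn). In the GRCm38 assembly, Lepr lies on chromosome 4 from 101717404 to 101815352, Cxcl12 on chromosome 6 from 117168535 to 117181367, Col1a1 on chromosome 11 from 94936224 to 94953042 and Col1a2 on chromosome 6 from 4504814 to 4541544. Cdh5 lies on chromosome 8 from 104101625 to 104144511, Kdr on chromosome 5 from 75932827 to 75978458 and Emcn on chromosome 3 from 137341067 to 137432185. The annotated gene models of Cdh5 and Col1a2 overlap Gm29682 and Gm43921, and Lepr overlaps no other gene, with Leprot 58.0 kb away.

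The libraries held 33425695 to 43554233 UMIs and 4870 to 6944 cells each. The 68 cells were deeper than the rest, with a median of 9612.5 UMIs and 2082 detected genes, against 3588 UMIs and 916 genes in the 29611 other cells. Across the libraries 494 cell barcodes occurred in more than 1 library, 3 of the 68 cells had a barcode that was a cell elsewhere, and 0 were among the 68 in another library. The automatic threshold of Scrublet, a doublet caller, marked 158 doublets at day 0 and 2, 3, 0 and 3 in the later libraries, where it did not work, and 1 of the 68 cells was among them. Of the 68 cells, 6 were in the highest 5% of scores of their library. A further 12 barcodes reached 5 UMIs of the 7 genes and were left out by the mitochondrial limit.

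The label of stromal and endothelial cells held for a part of these barcodes. They were grouped by their leading rule gene, a grouping made after the values had been seen. In 16 cells the 2 collagen genes led (collagen-led), in 19 cells Cxcl12 led (Cxcl12-led), in 32 cells Lepr was the only rule gene with a UMI (Lepr-only), and in 1 cell Cdh5 and Kdr together exceeded the other genes (endothelial-side). Emcn had no UMI in any of the 68 cells. The groups were then described with 24 stromal and 26 endothelial genes that the rule did not use. These lists were chosen with earlier results of these data known, so they are no independent test.

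At least 3 of the 24 held-out stromal genes were detected in 28 of the 68 cells (41.2%, exact interval 29.4 to 53.8%), against 10 of 29611 other cells (0.0338%, interval 0.0162 to 0.0621%). All 28 were collagen-led or Cxcl12-led, with 11 of 16 and 17 of 19 cells. None of the 32 Lepr-only cells passed, and 31 of them held no UMI of any of the 24 genes, at a median of 11670 UMIs per cell against 5037.5 and 5098 in the collagen-led and Cxcl12-led cells. The Lepr-only cells thus had the highest median depth and, with the endothelial-side cell, almost no stromal genes, and they were nearly as many as all others together. At least 3 of the 26 held-out endothelial genes were detected in 12 of the 68 cells and in 97 of 29611 other cells, and at least 5 in 3 and 4 cells. Of the 12, 6 were collagen-led, 4 Cxcl12-led, 1 Lepr-only and 1 endothelial-side, and 10 also held at least 3 held-out stromal genes. The collagen-led cells had no UMI of Cdh5, Kdr or Emcn, so 3 genes of this list did not by themselves mark endothelium.

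**Figure D1:**
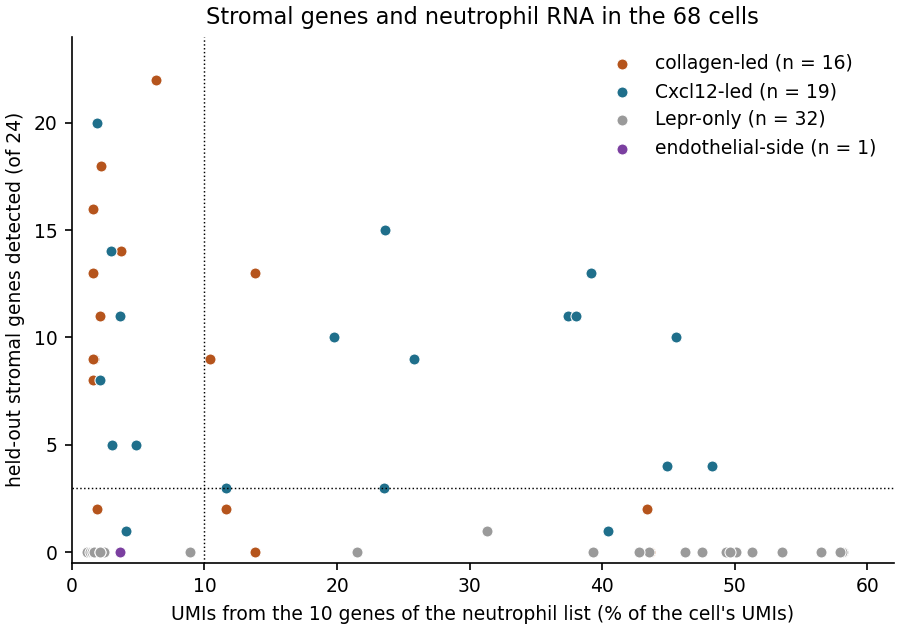
Each point is 1 of the 68 cells, with the share of its UMIs from the 10 genes of the neutrophil list (percent, horizontal axis) and the number of held-out stromal genes detected of 24 (vertical axis), coloured by group. Lepr-only cells lie at 0 or 1 stromal gene at every neutrophil share, and dotted lines mark 10% and 3 genes, the limits used in the text.

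In the order of the days, 15, 16, 14, 22 and 1 cells met the rule. They made up 0.240% (exact interval 0.134 to 0.395%), 0.329% (0.188 to 0.533%), 0.232% (0.127 to 0.389%), 0.317% (0.199 to 0.479%) and 0.0180% (0.000455 to 0.100%) of the cells of each library. The day 12 interval lies below those of the 4 other days, and the other 4 intervals overlap. The makeup differed between the days, since 14 of the 15 cells of day 0 and the 1 cell of day 12 were Lepr-only, against 6 of 16, 6 of 14 and 5 of 22 at days 3, 6 and 9. Without the Lepr-only cells the counts were 1, 10, 8, 17 and 0, or 0.0160%, 0.205%, 0.132%, 0.245% and 0% of cells, and the 0 of day 12, by a floor of 3 counts, allows a share of up to 0.0539%. Cells with at least 3 held-out stromal genes numbered 1, 7, 6, 14 and 0. The day 0 and day 12 libraries thus held almost no cell with a stromal profile, and day 9 held the most. With 1 mouse a day, the day, the mouse and the handling of its bones cannot be told apart.

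**Figure D2:**
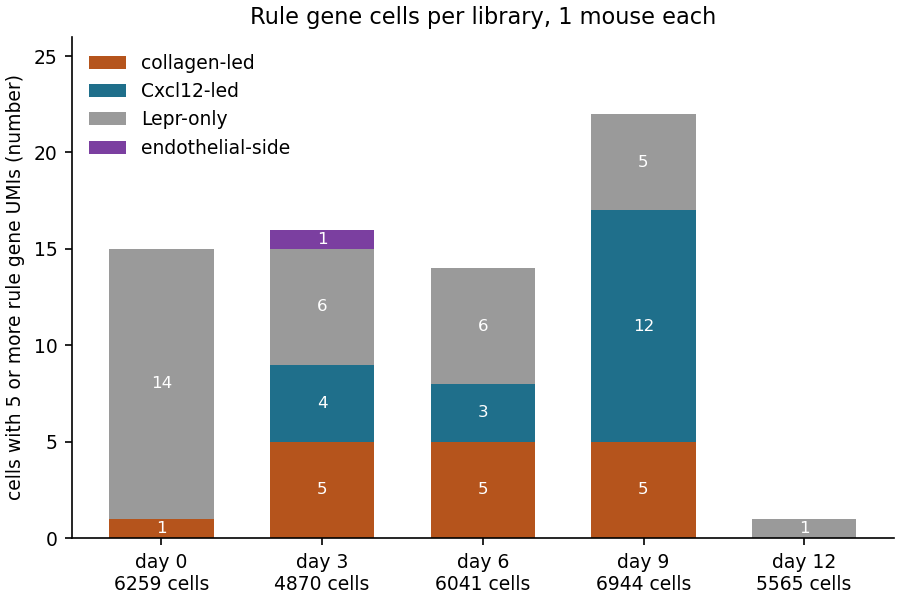
Bars give the number of cells with at least 5 UMIs of the 7 rule genes in each library, stacked by group, with the number of all cells of the library under each day. Lepr-only cells are 14 of 15 at day 0 and 1 of 1 at day 12, and Cxcl12-led cells number 12 at day 9.

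The rule takes few cells just at its limit that carry stromal genes. Of 25 cells with a sum of 4 UMIs, just outside, 19 had only Lepr and 1 held 3 or more held-out stromal genes. Of 16 cells with exactly 5, just inside, 15 had only Lepr and 1 held 3 or more. Of the 52 cells with 6 or more, 17 had only Lepr and 27 held 3 or more. Most cells just outside and all but 1 of those just inside were thus Lepr-only.

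Lepr encodes the leptin receptor, a widely used mark of reticular stroma in adult marrow. Over all cells it had 964 UMIs, of which 246 (25.5%, exact interval 22.8 to 28.4%) lay in the 68 cells, against 83.5% of Cxcl12, 79.7% of Col1a1 and 87.5% of Col1a2. The Lepr-only cells held 221 of the 246, with 5 to 14 UMIs per cell and a median of 6. In contrast, 9 of the 19 Cxcl12-led cells had a Lepr UMI, 24 in all and at most 6 in a cell, and 1 of the 16 collagen-led cells had 1. Summed over the Lepr-only cells, which the rule picked for it, Lepr stood at 567.5 UMIs per 1000000 UMIs (counts scaled in this way are given as CPM). Its neighbour Leprot had 11 UMIs in 9 of the 32 cells and stood at 0.97 times its level in other cells. A UMI of Lepr was found in 1.64% of other cells, in 1.19% of 18201 neutrophil cells (S100a8 and S100a9 at 5% or more of UMIs, median 3426 UMIs) and in 2.53% of 277 B cells (at least 5 UMIs of Cd79a and Cd79b, median 11422 UMIs). The cells in which Lepr was the only rule gene numbered 330 with 1 UMI, 83 with 2, 45 with 3, 19 with 4, 15 with 5 and 17 with 6 or more.

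The Lepr-only cells had the profile of blood cells. Between 3 and 8 of 8 genes shared by blood cells, such as Ptprc, Laptm5 and Coro1a, were detected in each, with a median of 8. In 16 of the 32 the neutrophil list gave at least 10% of UMIs, with a median of 2 of 8 monocyte genes, and in the other 16 it gave less, with a median of 7 monocyte genes. Set against other cells of the same libraries, 2 of 2067 genes were at least 4 times higher in the Lepr-only cells (percent called 0.0968), and 1 of them was Lepr itself. The other was Ccne2, a cyclin of the entry to DNA synthesis, at 53.9 against 13.3 CPM. Several of the next highest genes, under the limit, were also of the cell cycle. Cdk1 stood at 190.0 against 66.1 CPM, in 20 of the 32 cells, and Mki67 at 174.6 against 72.4 CPM, in 24. Without the day 0 or the day 9 library 1 gene was at least 4 times higher, and 8 genes were when only cells under 10% neutrophil RNA were kept. A gene entered that comparison with at least 20 UMIs observed or expected, and 0 genes of the stromal, endothelial, osteoblast, cartilage and mural lists did so. At least 4 times lower were 32 genes (percent called 1.55), among them 4 of 4 tested genes of the erythroid list, 2 of 2 of the T cell list, 2 of 5 of the B cell list and 2 of 10 of the neutrophil list. The depth of these cells stood above that of other cells, with medians of 11670 and 3588 UMIs, and its part in the choice of the group was not tested.

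The collagen-led cells held 541 UMIs of Col1a1 and 473 of Col1a2, and 1 cell carried 381 and 329 of them. Against other cells, 146 of 930 genes were at least 4 times higher (percent called 15.7) and 25 at least 4 times lower (percent called 2.69). Since the rule chose the cells and a gene counts only from 20 UMIs, these counts describe the group and support nothing further. Of the 24 held-out stromal genes 23 had a UMI, 15 reached the minimum, and the 15 were all at least 4 times higher, with a median ratio of 1425 beside 0.973 over all 930 genes. Summed over the list, the 24 genes stood at 15322 CPM in the collagen-led cells and at 27.7 CPM in other cells. The cells did not form 1 kind, and their profiles fell apart by the genes that accompany the collagens.

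Fibroblast genes accompanied the collagens in 7 cells, 1 of day 0, 3 of day 3, 2 of day 6 and 1 of day 9, which were those with a UMI of Clec3b, the gene of tetranectin. Decorin (Dcn), which binds collagen fibrils, had 34, 58, 29, 117, 25, 108 and 61 UMIs in them in that order. Gelsolin (Gsn), which severs actin, had 171, 74, 82, 119, 118, 95 and 9, and Clec3b had 20, 32, 5, 8, 15, 20 and 36. All 7 held 9 to 18 of the held-out stromal genes at 2885 to 6195 UMIs per cell, and the neutrophil list gave 1.56 to 13.8% of their UMIs. Mfap5, a fibril protein, was found in 6 of them with 2 to 34 UMIs, and Myoc in 5 with 2 to 18. The only cell of day 0 with a stromal profile belonged here, with 4580 UMIs and 14 held-out stromal genes, and it also had 19 UMIs of Inmt and 5 of Cxcl12. Its doublet score of 0.337 was the highest among the 68 cells.

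Bone and cartilage genes accompanied the collagens in 4 cells. Of these, the 3 with a UMI of Ucma had 0 UMIs of Col1a1 and 4 to 13 of Col1a2. The one of day 6 had 4 of Col1a2 and met the rule with 1 of Lepr. A cell of day 3 with 13278 UMIs carried 381 UMIs of Col1a1, 329 of Col1a2, 319 of Col3a1, 151 of Ibsp (bone sialoprotein), 135 of Postn (periostin, of the bone surface) and 42 of the collagenase gene Mmp13, with 22 of 24 held-out stromal genes. It had 3 UMIs of the osteocalcin gene Bglap. A cell of day 6 with 13710 UMIs carried 630 UMIs of Col2a1, the collagen of cartilage, 605 of Sparc, 84 of Chad, 31 of Acan and 30 of Ucma, and with them 286 of Bglap. A cell of day 9 with 9969 UMIs carried 592 of Col2a1, 35 of Acan and 42 of Ucma, and 1 of Bglap. The other cell of day 9 stood apart, with 5561 of its 12352 UMIs from Msmp and 311 from Cytl1, together with 55 of Comp, 30 of Chad and 1 of Col2a1. Single cells therefore set the group level of many of these genes, since all UMIs of Msmp lay in the latter cell and all of Postn in the cell of day 3, and 2 cells held 630 and 592 of the 1226 UMIs of Col2a1.

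The 5 remaining collagen-led cells held 0 to 2 of the held-out stromal genes, 1 at day 3, 2 at day 6 and 2 at day 9. Their type I collagen UMIs were 46 of 30344, 68 of 14945, 11 of 4934, 7 of 4159 and 7 of 820. Bglap accompanied them with 22, 24, 1, 4 and 1 UMIs, and 6 to 8 of the 8 blood genes were detected. The neutrophil list gave 11.6, 43.4, 1.86, 43.6 and 13.8% of their UMIs, and the third cell held 13 UMIs of the T cell receptor gene Trbc2. These cells combined a blood profile with UMIs of bone collagen and osteocalcin. Their doublet scores were 0.0163 to 0.187, and whether RNA of more than 1 cell was read under these barcodes was not tested.

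**Figure D3:**
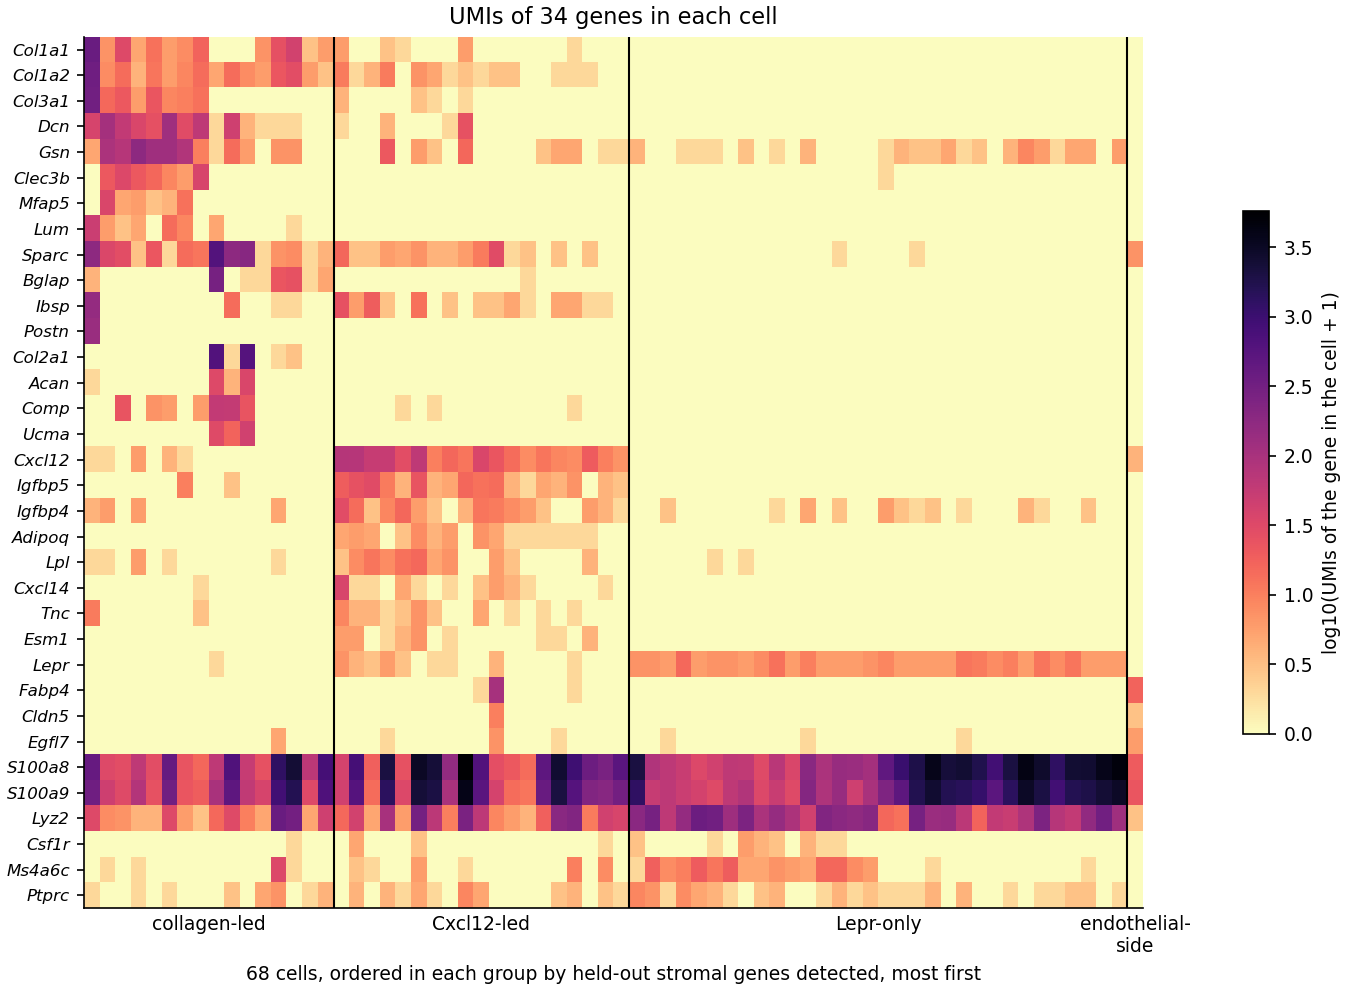
Columns are the 68 cells by group and rows are 34 genes, with colour giving log10 of the UMIs of the gene in the cell plus 1. Collagen-led cells split into blocks with Clec3b and Gsn, with Col2a1, Acan and Ucma, and with neither, most Cxcl12-led cells hold Igfbp5 and Adipoq, and Lepr-only cells are blank from Col1a1 to Ucma but for scattered UMIs of Gsn, Clec3b and Sparc and dark for S100a8, S100a9 or Lyz2.

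Of the 20 genes on a list of reticular stroma, 3 to 17 were detected per Cxcl12-led cell, with a median of 9. The Lepr-only cells, with their blood profile, held 1 to 5 of the 20, and 7 of the 32 held 3 or more. Counts at the low end of the range thus do not by themselves mark reticular stroma. The Cxcl12-led cell with the fewest, of day 3, held 1 held-out stromal gene and no UMI of Adipoq or Lpl. A cell of day 9 with 1 held-out stromal gene had a doublet score of 0.237. Cxcl12, the chemokine that holds CXCR4+ cells in marrow, had 514 UMIs in the 19 cells, with 6 to 76 per cell and a median of 15. In them 52 of 919 genes were at least 4 times higher than in other cells (percent called 5.66) and 14 at least 4 times lower (percent called 1.52). The higher genes numbered 33 without the day 6 library, 23 without the day 9 library and 26 when only cells under 10% neutrophil RNA were kept. Igfbp5, a binding protein of insulin-like growth factors, had 176 UMIs in 18 of the 19 cells, at 1107 CPM against 0.498 in other cells. Adipoq, the gene of the hormone adiponectin, had 46 UMIs in 15 cells, and Lpl, which splits lipoprotein fat, had 73 in 11 cells. The transcription factor gene Ebf3, of the reticular list, had 1 UMI in each of 8 of the 19 cells and 3 UMIs in all 29611 other cells. Of the 20 genes of the reticular list, 19 had a UMI, 11 reached the minimum and 9 were at least 4 times higher, with a median ratio of 46.9 beside 0.894 over all 919 genes. A gene near 0 in other cells entered only through its UMIs in this group, so the count describes the group and supports nothing further. Tnc and Fbln5, genes of matrix proteins, were found in 11 and 15 of the cells with 32 and 30 UMIs. The bone gene Ibsp had 82 UMIs in 14 cells, while Col1a2 had 45 in 14 and Col1a1 14 in 5.

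Neutrophil RNA was present at a high level in most of the Cxcl12-led cells. The neutrophil list gave at least 10% of UMIs in 12 of the 19, of which 9 were of day 9, 2 of day 3 and 1 of day 6. Those 12 were larger, with a median of 9418.5 UMIs against 2502 in the 7 others, and 5 to 8 of the 8 blood genes were detected in them. The stromal genes were present in both sets, with a median of 9.5 held-out stromal genes in the 12 cells and 8 in the 7. Cxcl12 stood at 2412 CPM (exact Poisson interval 2150 to 2696) in the 12 cells and at 6589 (5720 to 7552) in the 7. Cxcl12 chose and grouped these cells, and the minimum of 5 rule gene UMIs is a larger share of a smaller cell. Its 2 levels are therefore a description of the chosen cells and no measure of a difference between the sets. Igfbp5 stood at 829.9 (679 to 1004) and 2239 (1745 to 2829). Igfbp4, another binding protein of that family, stood at 391 (291 to 516) and 2239 CPM (1745 to 2829). Apoe, of lipid transport, stood at 603 (476 to 754) and 1119 CPM (780 to 1557). Single cells weighed on these levels. In the 7 cells 1 cell held 28 of 70 Igfbp4 UMIs, and 1 held 20 of 35 Apoe UMIs. In the 12 cells 1 cell held 29 of 77 Apoe UMIs and 1 held 13 of 50 Igfbp4 UMIs. The levels of the 3 genes outside the rule were lower in the 12 cells, by unequal factors, and the part of neutrophil RNA in this was not tested. A cell of day 3 with 27430 UMIs also carried 270 UMIs of Prg4, the lubricant protein of joints, and was the only Cxcl12-led cell with that gene.

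Across days 3, 6 and 9, with 4, 3 and 12 cells, Cxcl12 in Cxcl12-led cells stood at 2561 (2062 to 3144), 4521 (3666 to 5515) and 3196 (2859 to 3563) CPM. Igfbp5 stood at 1660 (1264 to 2141), 1119 (717 to 1664) and 911.9 (736 to 1117). Adipoq stood at 225.1, 279.6 and 313.8, with intervals that overlap. A cell of day 6 held 76 of the 97 Cxcl12 UMIs of its day, so these levels describe few cells. The neutrophil list gave at least 10% of UMIs in 2 of the 4, 1 of the 3 and 9 of the 12 cells. Those of day 3 also include the cell with endothelial genes described below. The part of either in the levels was not tested. Lepr stood at 140.7, 279.6 and 127.5 CPM from 5, 6 and 13 UMIs.

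Among the 68 cells an endothelial profile was found in 2, both of day 3, and the next highest held 5 of the 26 held-out endothelial genes. The endothelial-side cell had 1668 UMIs, with 3 of Cdh5, 5 of Kdr and 3 of Cxcl12, and it held 16 of the 26 held-out endothelial genes and none of the 24 stromal ones. Among its UMIs were 16 of Fabp4, a fatty acid carrier of capillary endothelium, 5 of Egfl7 and 2 of Cldn5, a protein of tight junctions. The other was grouped as Cxcl12-led, because it had 22 UMIs of Cxcl12 beside 5 of Cdh5 and 3 of Kdr, and held 19 of the 26 endothelial genes at 3996 UMIs. It carried 105 UMIs of Fabp4, 9 of Cldn5, 6 of Egfl7, 6 of Eng and 4 of Pecam1, and also 13 of Igfbp5, 4 of Adipoq and 3 of Lepr, so that both gene sets were read in 1 barcode. Only these 2 of the 68 cells had UMIs of Cdh5 or Kdr, and they held 8 of 209 Cdh5 UMIs and 8 of 125 Kdr UMIs found in cells. Outside the 68, a cell of day 9 with 877 UMIs held 7 of the 26 held-out endothelial genes. It had 18 UMIs of Fabp4, 1 of Cdh5 and 3 of Cxcl12, and its sum of 4 rule gene UMIs fell short of the rule. A comparison of the endothelial-side cell with the 67 others rests on its 1668 UMIs. In it 12 of 3342 genes were called at least 4 times higher (percent called 0.359) and 14 at least 4 times lower (percent called 0.419). The 12 do not count every gene past 4-fold. Among genes with at least 50 UMIs, the 15 highest had ratios of 20.2 to 64.5 with 1 count added to each side, many from 2 UMIs. The counts thus give no more than its leading genes. Fabp4 led the higher genes, with Fkbp1a, Hspg2 and Id1 among those after it at 2 to 4 UMIs each, and S100a8, Msmp, Lyz2 and Camp led the lower ones. Set against other cells of day 3, the endothelial-side cell had 9 genes with enough UMIs, of which 1 was at least 4 times higher (percent called 11.1) and 4 at least 4 times lower (percent called 44.4). For the 67 others taken as a whole, 167 of 3588 genes were at least 4 times higher than in other cells (percent called 4.65) and 28 at least 4 times lower (percent called 0.78).

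The niche ligands were then traced to their cells. Cxcl12 was used by the rule, and 528 of its 632 UMIs lay in the 68 cells. A UMI of Cxcl12 was found in 25 of the 68 cells (36.8%), in 0.308% of neutrophil cells and in 1.08% of B cells. Of the 23 other ligands on the list, 8 had over 20% of their UMIs in the 68 cells, which hold 0.446% of all UMIs of cells. Cxcl14 had 57 of 68 UMIs there (83.8%, exact interval 72.9 to 91.6%), 56 of them in Cxcl12-led cells and 36 in a cell of day 6. Kitl, the ligand of KIT on blood progenitors, had 7 of 12 (58.3%, 27.7 to 84.8%), in 6 Cxcl12-led cells, and was seen in 0.0110% of neutrophil cells and in 0 of 277 B cells.

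The other ligands were spread over both stromal groups and other cells. Ptn (pleiotrophin) had 23 of 33 UMIs (69.7%, 51.3 to 84.4%) in the 68 cells, 18 of them in the bone-gene cell of day 3, and Tgfb2 had 14 of 36, all in collagen-led cells. Bmp4 had 9 of 16, 5 of them in Cxcl12-led cells, Il34 6 of 10, 5 of them in Cxcl12-led cells, and Wnt5a both of its 2 UMIs. Igf1 had 28 of 109, with 14 in collagen-led and 13 in Cxcl12-led cells. Il7, which B cell precursors need, had 10 UMIs in all cells and 0 in the 68 cells, which together hold 685093 UMIs. Csf1 had 18 of 449, 17 of them in Cxcl12-led cells, and Angpt1 had 2 of 398, Jag1 1 of 198, Ccl2 39 of 3106 and Il15 11 of 3076. Over the 23 ligands 285 of 10338 UMIs (2.76%, 2.45 to 3.09%) were in the 68 cells. Most of the 10338 were of Ccl2, Il15 and Spp1, with 3106, 3076 and 2148 UMIs. Spp1 had 40 UMIs in the 68 cells, 32 of them in Cxcl12-led cells and 26 in 1 cell. Which other cells held these 3 ligands was not tested.

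**Figure D4:**
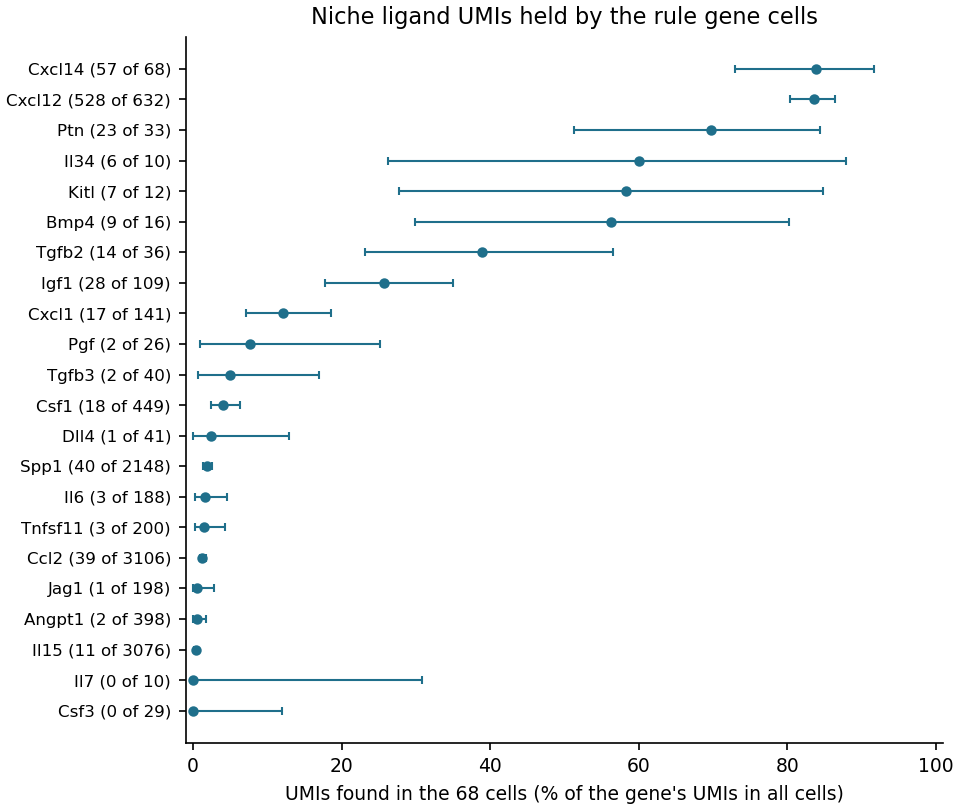
Points give the percent of the UMIs of a ligand in all 29679 cells that lay in the 68 cells, with exact binomial 95% intervals that cover counting error only, for ligands with at least 10 UMIs, and the counts stand beside each name. Cxcl14, Cxcl12 and Ptn lie above 50% with their whole interval, and Il15, Angpt1, Jag1 and Ccl2 lie under 3%.

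The same genes were followed outside the 68 cells, in barcodes of at most 100 UMIs, which hold free RNA. Col1a1 and Col1a2 together had 7, 73, 31, 22 and 3 UMIs there in the order of the days, or 1.67, 20.5, 21.3, 12.4 and 0.767 CPM. Cxcl12 had 3, 19, 7, 23 and 0 UMIs, or 0.716, 5.33, 4.82, 12.98 and 0 CPM. Both were low in the first and the last library, and the intervals of the 3 libraries between lay above that of the first, except for Cxcl12 at day 6 (1.94 to 9.92 CPM against 0.148 to 2.09 CPM). Lepr took another course, with 22.2 CPM (17.9 to 27.2) in the first library and 19.7 CPM (15.5 to 24.6) in the last, and 10.9, 13.1 and 12.4 CPM in the 3 between. Of these, only the interval of day 3 (7.78 to 14.97) lies below both, while those of day 6 (7.87 to 20.4) and day 9 (7.78 to 18.8) overlap both. The collagens and Cxcl12 in free RNA were thus measured where the cells with stromal genes were found, and the value of Lepr was higher in the libraries where nearly all cells of the rule were Lepr-only, with the overlaps given. Cdh5, Kdr and Emcn together had 6 to 18 UMIs per library there and intervals that overlap between all days. In other cells Cxcl12 was also low in the first and the last library, at 0.0342 and 0.0375 CPM, against 0.489, 0.755 and 1.82 CPM between. The 2 collagens did not follow this course in other cells, with 0.854, 2.31, 1.45, 1.16 and 1.24 CPM. Their 33 UMIs of day 12 were all of Col1a1.

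**Figure D5:**
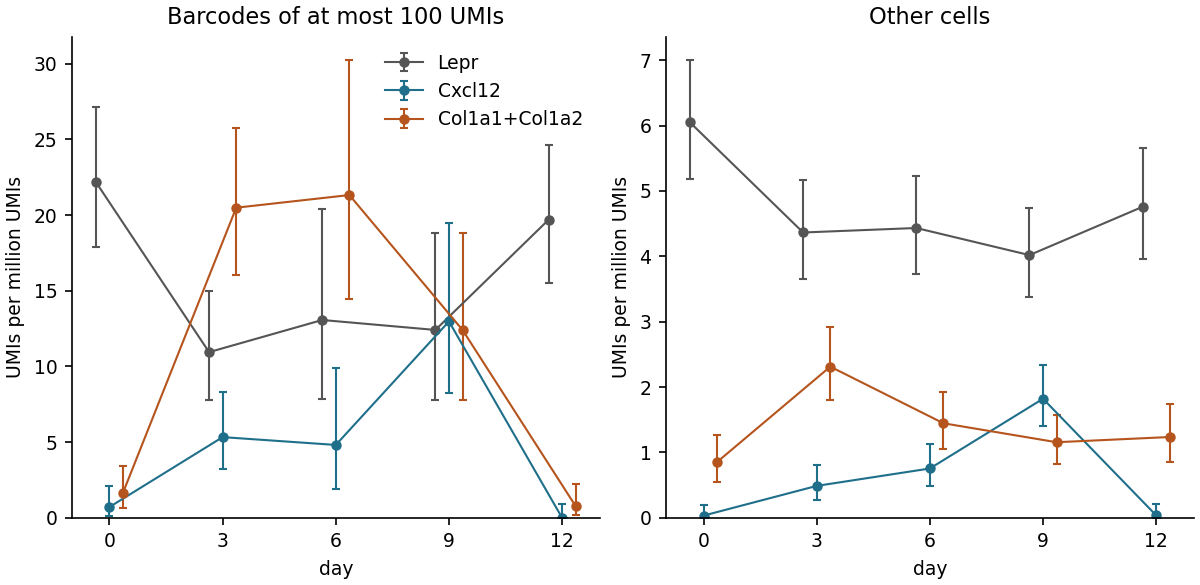
CPM (vertical axes, different scales) of Lepr, Cxcl12 and the sum of Col1a1 and Col1a2 by day, in barcodes of at most 100 UMIs (left) and in other cells (right), with exact Poisson 95% intervals from counting error in 1 library a day. The collagens and Cxcl12 are low at days 0 and 12 in free RNA, and Lepr has its higher values at days 0 and 12, with intervals that overlap those of days 6 and 9.

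Lists of other cells gave the following in the groups. Of the 10 mural genes, which mark smooth muscle and pericytes, 0 reached the minimum in any group and no cell held 3 or more, with 13 of 68 cells holding any. The stress genes of the AP-1 family showed no 4-fold difference, with 0 of 5 tested genes in the collagen-led and in the Cxcl12-led cells and 0 of 7 in the Lepr-only cells, and Fos, an early response gene, stood at 1.81, 1.43 and 0.962 times its level in other cells. Macrophage genes reached 3 or more in 2 Cxcl12-led cells, and B cell genes in 14 of the 68, 9 of them Lepr-only. At least 4 times lower were 4 of 4 tested B cell genes in the collagen-led and in the Cxcl12-led cells, and 3 of 3 and 4 of 4 tested erythroid genes, beside 2.69% and 1.52% of all genes tested, and in the Lepr-only cells 2 of 5 B cell genes beside 1.55%. Megakaryocyte and stem cell lists had no cell with 3 or more genes.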

How the data were processed

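Bone marrow suspensions of 5 mice, 1 per day, were measured by 10x Genomics 3′ v2 sequencing. The deposited values are raw UMI counts per gene and barcode, which the authors made with Cell Ranger on mm10, for all 737280 barcodes and 28692 genes, with no filter or normalization. Here barcodes with at least 500 UMIs and at most 10% mt- UMIs were kept, and members needed 5 UMIs of the rule genes. Members, lists and groups were chosen with earlier results of these data known, and the groups by leading rule gene after their values were seen. Levels are summed UMIs per 1000000 UMIs. A group was set against the other cells of its libraries, weighted by its UMIs per library, for genes with 20 UMIs observed or expected, and called at 4-fold, with a floor of 3 counts where the reference was 0. No test was made. Shares have Clopper-Pearson and counts Poisson 95% intervals. The rule for named genes was the 7 rule genes, list genes with at least 10 UMIs in the members, and the 15 highest and 15 lowest genes of the endothelial-side cell among those with at least 50 UMIs; other genes named lead a group or a cell and were chosen after their values were seen. On simulated cells, 100 of 100 planted cells were found, and 100 of 100 genes changed 8-fold and 0 of 1298 unchanged genes were called. The planted cells were set well above the limit of 5 UMIs, and counts were drawn without differences between cells. The run thus checked the procedure only, and does not show how it acts on cells at the limit or on levels set by single cells. Python 3.11.15, numpy 2.4.6, scipy 1.17.1 and scanpy 1.11.5 (Scrublet) were used. Doublets were not removed. Alternatives changed the UMI, mitochondrial and rule limits, Cxcl12, doublets, scaling, depth and libraries.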

Additional observations from a re-analysis of the deposited data

Results flagged for a closer look

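Cells with stromal genes were found outside the 68 members at days 3, 6 and 9 and none at day 0, the earliest library. At least 3 of the 24 held-out stromal genes were detected in 2 other cells of day 3, 4 of day 6 and 4 of day 9, against 0 at day 0 and 0 at day 12. Of these 10 cells, 8 carried at least 100 UMIs of Col2a1, with 232 at day 3, 424, 643 and 595 at day 6 and 1043, 632, 465 and 260 at day 9, and they had 0 to 4 UMIs of the 7 rule genes. Together the 10 held 4294 of the 4779 Col2a1 UMIs of other cells. Acan, of the cartilage matrix, had 32 to 87 UMIs in each of the 8 cells, and the neutrophil list gave under 10% of UMIs in all 10. The rule genes hold no cartilage gene, and only 2 members carried Col2a1 at such a level. The remaining 2 cells were of 538 and 3721 UMIs, and the former held 9 UMIs of Dcn and 8 of Gsn.

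Barcodes below the minimum of 500 UMIs also carried the rule genes. Those with more than 100 UMIs and at least 5 of the rule genes numbered 6 at day 3 and 13 at day 9, above the 1 of day 0, which had only Lepr, and 4 and 0 were found at days 6 and 12. Of these 24 barcodes 14 were collagen-led, 9 Cxcl12-led and 1 Lepr-only, with a median of 252 UMIs. At most 10% of UMIs came from mt- genes in 17 of them, and 6 held at least 3 held-out stromal genes. The barcode with the most rule gene UMIs, of day 9, had 44 UMIs of Col1a1, 24 of Col1a2 and 67 of Bglap. Another of day 9 had 251 UMIs, with 26, 21 and 33 of these genes.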

How the results depend on the processing

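Limits of 1000 UMIs or 20% mt- UMIs and the removal of Scrublet calls or, added after seeing the data, of the highest 5% of scores left every share within its counting interval. With mt- genes at most 5%, the endothelial-side share was 0%. With at least 3 rule UMIs the shares of members from day 0 to day 12 were 0.479, 0.678, 0.530, 0.518 and 0.270%, and 19.9% held held-out stromal genes. With at least 10, days 0, 6, 9 and 12 gave 0.0799, 0.0993, 0.173 and 0%, and 70.6% held them. Without Cxcl12, day 9 gave 0.187%, and 63 genes were called 4 times higher and 28 lower in 2 endothelial-side cells. Without Lepr-only members, an alternative added after seeing the data, days 0 and 12 gave 0.0160 and 0%, and 77.8% and 30.6% held stromal and endothelial genes. Thinned to 1000 UMIs, the endothelial-side cell had 2 genes called higher and 5 called lower. With only members under 10% neutrophil UMIs, also added, 26 genes were 4 times higher in Cxcl12-led and 8 in Lepr-only cells. Leaving out each library in turn gave 102 to 146 genes for collagen-led and 23 to 52 for Cxcl12-led cells (33 without day 6 and 23 without day 9). It gave 1 to 2 for Lepr-only cells (1 without day 0 or day 9) and 2.08 to 3.40% for the ligands. For the endothelial-side cell 11 to 12 genes were called higher and 14 to 15 lower. Only the gene counts of the endothelial-side cell could not be given without day 3, which holds that cell. The cause of these moves was not tested. Of 80 further values for single genes over both sides, 43 moved beyond their counting interval. No paired analysis was possible because each day is 1 mouse. Counts of 1 to 22 members per library limit what these data can show.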
